A study of Saccharomyces cerevisiae with 44 samples.

Results

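Budding yeast cells of mating type a that lacked KAR4 (kar4Δ, strain ACY01) were compared with their wild-type parent (WT, strain VM05) after 60 min in 20 µM alpha-factor, the peptide pheromone that cells of mating type alpha release. The comparison holds 8 of the 44 samples of the series, namely 4 WT and 4 kar4Δ RNA-seq libraries. They were chosen by their labelled strain, treatment and batch, and in each strain batch 1 gave replicates 1 and 2 and batch 2 gave the rest. All of the strains, WT included, were MATa and mutant for the alpha-factor protease gene (bar1) and for all of the G1 cyclins (cln1, cln2, cln3), with a GAL-CLN3 construct at leu2:LEU2. They also shared the markers ade1, his2, trp1 and ura3. Cells were grown at 30 °C in galactose, moved to glucose for 3 h to arrest them in G1, and then either frozen (0 h) or given the pheromone. Further groups served as references: WT and kar4Δ at 0 h and ste12Δ (strain ACY02) after alpha-factor, with 4 libraries each from the same batches, and, from batch 3, ime4Δ with its own WT after alpha-factor. Nothing in the labels says that replicates came from separate cultures, so p-values measure the spread between these libraries, which may be technical.

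Alpha-factor binds the receptor Ste2 on a cells and acts through a G protein and a MAP kinase cascade on the transcription factor Ste12. Ste12 binds pheromone response elements, whose core reads TGAAAC, at genes for arrest, polarised growth, cell fusion and nuclear fusion. Kar4 is a partner of Ste12 that is itself made in response to pheromone and is known for its part in karyogamy, the fusion of the nuclei of mating cells. Kar4 also belongs to the complex around Ime4, the mRNA N6-adenosine methyltransferase of meiotic cells. The series title names Kar4 as a regulator of Ste12 that acts through a DNA motif, and the comparison asks which transcripts of pheromone-treated cells differ when Kar4 is missing.

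The 4 WT libraries held between 5.57 and 10.2 M counts (M, 1000000), and the 4 kar4Δ libraries between 7.17 and 9.81 M. Levels are given as counts per 1000000 (CPM) of the library total after scaling, are not divided by gene length, and are compared only between samples of 1 gene. Genes of the retrotransposon Ty3 took 8.25% ± 0.932 (SD, n = 4) of WT counts and 3.86% ± 0.645 of kar4Δ counts, and the groups did not overlap (two-sided exact permutation p = 0.0286, the smallest that 4 against 4 can give). Throughout, ± gives the SD over 4 libraries unless SE is written. Ribosomal RNA took 0.152% to 2.99% of WT counts and 0.263% to 8.57% of kar4Δ counts (two-sided exact permutation p = 0.286). Its mean share was 0.170% in WT against 0.294% in kar4Δ in batch 1, and 2.86% against 7.22% in batch 2. KAR4 itself stood at 482, 434, 324 and 335 CPM in WT replicates 1 to 4, and at 1 to 2 counts per kar4Δ library, at least 956-fold lower when set against a floor of 3 counts per library. PEX34, the gene next to the deleted KAR4, was called higher in kar4Δ by 0.86 (log2) after alpha-factor and by 0.55 at 0 h. The 7 a-cell markers summed to between 4024 and 6135 CPM in WT and between 4349 and 5439 CPM in kar4Δ, which matches the labelled mating type. BAR1, the protease gene mutated in these strains, had 0 to 2 counts per library in both groups. CLN1 and CLN2 still gave reads, with CLN1 at 71.3 to 94.9 CPM in WT and 71.7 to 88.2 CPM in kar4Δ, although the genotype lists both as mutated.

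Loss of KAR4 was accompanied by differences across much of the transcriptome, most of them small. Of 6161 genes tested, 2332 (37.9%) passed an adjusted p of 0.05 in edgeR's quasi-likelihood test, with batch as a term and Benjamini-Hochberg adjustment. Among them 1033 (16.8%) were higher and 1299 (21.1%) were lower in kar4Δ. Scaling by library totals alone gave 705 higher and 1496 lower, and moved the median of all genes by -0.05 on the log2 scale, so the balance of small differences rests on the scaling. At least 2-fold differences were called for 152 genes (2.47%) in the higher and 118 (1.92%) in the lower direction. The 4 kar4Δ libraries lay wholly above the 4 WT libraries for 830 genes (13.5%) and wholly below them for 942 (15.3%). With each batch fitted alone, 29.3% of genes were called in batch 1 and 27.5% in batch 2, and 1706 of 1802 genes called in batch 1 had the same sign in batch 2 (94.7%, against 77.3% of all 6112 genes measured in both), and 272 of 273 did among those at least 2-fold different.

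**Figure D1:**
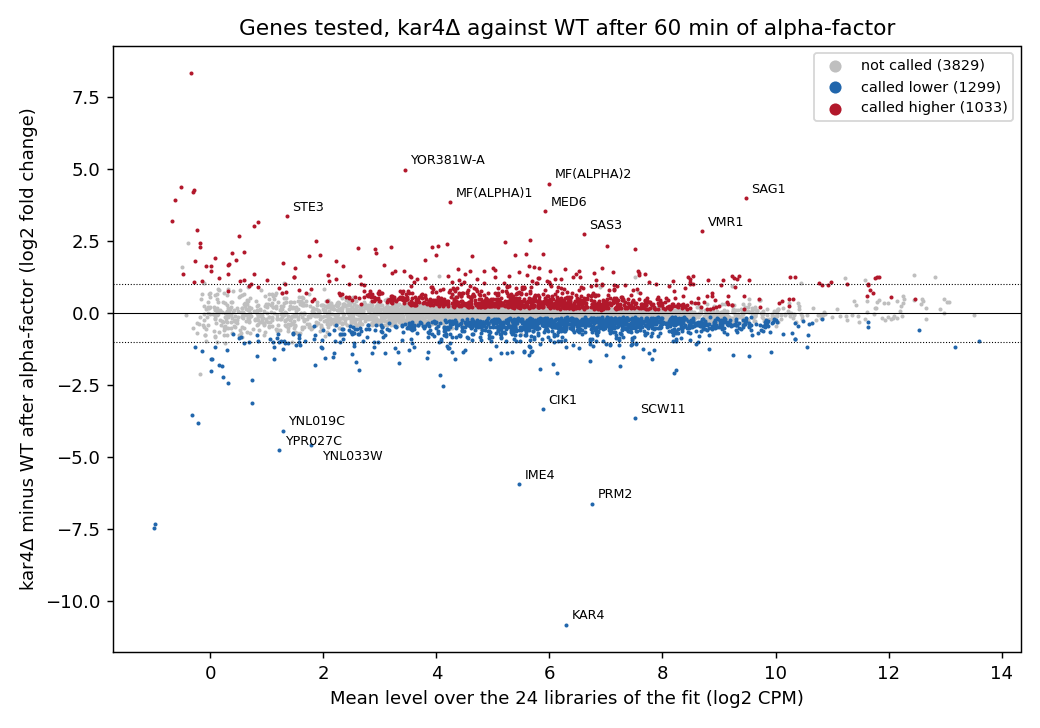
Difference between kar4Δ and WT after alpha-factor for each gene tested (vertical axis, log2, kar4Δ minus WT) against its mean level over the 24 libraries fitted (horizontal axis, log2 CPM). Called genes are coloured by direction. Values run from -10.8 for the deleted KAR4 to 8.31, with PRM2 at -6.61 and MF(ALPHA)2 at 4.49.

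Genes of nuclear fusion were among those that fell. Of 6 measured, PRM2, CIK1, KAR3 and PRM3 were called lower (66.7%, against 21.1% of all genes), and none was called higher. The median difference was -1.30 on the log2 scale (all genes, -0.03). CIK1 encodes the partner that directs the kinesin Kar3 to cytoplasmic microtubules in mating cells, and PRM2 and PRM3 encode pheromone-induced membrane proteins that act when nuclei fuse. The 300 bases ahead of the coding sequences of CIK1 (chrXIII:659445-659744, plus strand), PRM2 (chrIX:285000-285299, minus strand) and KAR3 (chrXVI:817924-818223, minus strand) are shown because these 3 genes fell the most of the group. They were read from the R64 reference genome, 5′ to 3′ on the gene's strand, and capitals mark TGAAAC or its reverse complement GTTTCA.
CIK1: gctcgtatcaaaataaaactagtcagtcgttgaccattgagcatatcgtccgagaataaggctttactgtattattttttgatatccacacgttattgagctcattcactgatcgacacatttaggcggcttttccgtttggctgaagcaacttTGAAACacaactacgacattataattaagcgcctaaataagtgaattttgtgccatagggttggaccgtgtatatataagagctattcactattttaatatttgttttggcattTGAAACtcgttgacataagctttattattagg
PRM2: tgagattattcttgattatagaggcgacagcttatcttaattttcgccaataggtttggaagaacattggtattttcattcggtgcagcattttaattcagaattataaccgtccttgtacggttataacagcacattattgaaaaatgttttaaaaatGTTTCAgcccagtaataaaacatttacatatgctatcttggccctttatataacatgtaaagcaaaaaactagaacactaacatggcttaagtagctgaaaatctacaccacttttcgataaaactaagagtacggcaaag
KAR3: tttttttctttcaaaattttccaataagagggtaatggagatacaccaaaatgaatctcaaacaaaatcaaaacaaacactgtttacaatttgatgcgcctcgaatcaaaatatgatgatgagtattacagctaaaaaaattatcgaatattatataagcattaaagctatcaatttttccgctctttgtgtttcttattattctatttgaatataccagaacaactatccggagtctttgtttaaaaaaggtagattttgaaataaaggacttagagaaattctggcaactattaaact
CIK1 has the motif 146 and 32 bases ahead of its start and PRM2 has it 141 bases ahead on the opposite strand, whereas KAR3 has none in this window or in the 500 bases scanned. Over all 5732 promoters scanned, 30.7% hold TGAAAC on either strand within 500 bases.

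CIK1 stood at 328, 310.2, 265 and 286 CPM in WT replicates 1 to 4 and at 34.9, 33.3, 23.6 and 26.6 CPM in kar4Δ. Every kar4Δ library was far below every WT library, a 10.1-fold gap (log2 difference -3.34 ± 0.07 SE, edgeR adjusted p = 2.06e-20). KAR3, the minus-end-directed kinesin that draws the nuclei together, was at 428, 393, 417 and 402 CPM in WT and at 126, 133, 133 and 129.6 CPM in kar4Δ. This gap was 3.14-fold (log2 difference -1.65 ± 0.08 SE, edgeR adjusted p = 8.14e-14), and replicates within a group lay close together. VIK1, the other partner of Kar3, known from vegetative spindles, averaged 11.4 ± 1.15 CPM in WT and 10.2 ± 1.74 CPM in kar4Δ (SD, n = 4) and was not called (log2 difference -0.16 ± 0.12 SE). PRM2 showed the largest gap after KAR4 itself among the genes named here, from 657, 639.5, 598 and 639 CPM in WT to 5.70, 5.66, 6.09 and 8.11 CPM in kar4Δ (log2 difference -6.61 ± 0.18 SE, edgeR adjusted p = 1.02e-18). Its level in kar4Δ was 97.6-fold below WT, with groups far apart. PRM3 kept more of its level, at 255 ± 54.2 CPM in WT and 134 ± 35.5 CPM in kar4Δ (log2 difference -0.94 ± 0.14 SE, edgeR adjusted p = 1.47e-05), although DESeq2 gave it an adjusted p of 0.0705. KAR5, which acts at the nuclear envelope during fusion, was not called, with 158 ± 12.6 CPM in WT and 161 ± 25.6 CPM in kar4Δ.

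Of the 6 transcription factor genes listed, 3 were called higher and 2 lower, against 16.8% and 21.1% of all genes. The lowered ones were DIG2 and KAR4, the deleted gene itself. STE12 was at 336, 296, 326 and 336 CPM in WT and at 664, 712, 605 and 643 CPM in kar4Δ, so every kar4Δ library was above every WT library. The difference of 1.03 ± 0.27 SE (log2) had an edgeR adjusted p of 0.00446 in the fit of 24 libraries, whose spread includes the strain deleted for STE12. With the 8 libraries alone the adjusted p was 2.38e-07, and DESeq2 gave 0.14. DIG1, an inhibitor of Ste12, rose 1.80-fold, from 163, 162, 142 and 143 CPM in WT to 289.9, 289, 263 and 253 CPM in kar4Δ (log2 difference 0.85 ± 0.05 SE, edgeR adjusted p = 1.66e-12). Its relative DIG2 went the other way, from 160.2 ± 13.9 to 128 ± 5.66 CPM (log2 difference -0.32 ± 0.07 SE, edgeR adjusted p = 0.000806). TEC1, the partner of Ste12 at filamentation genes, was 0.28 ± 0.08 SE higher, a call that was lost in batch 2 alone and with library totals. MCM1, the partner of Ste12 at a-specific genes, was not called, at 168 ± 12.3 CPM in WT and 163 ± 6.92 CPM in kar4Δ.

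Several genes outside nuclear fusion fell further than CIK1. IME4, the mRNA methyltransferase gene, was at 272, 282, 259.8 and 262 CPM in pheromone-treated WT and at 3.60, 5.66, 4.79 and 3.60 CPM in kar4Δ (log2 difference -5.93 ± 0.10 SE, edgeR adjusted p = 8.79e-23). The groups were 61.2-fold apart. RME2, the antisense transcript at the same locus, was 1.48 ± 0.08 SE (log2) higher in kar4Δ, at 87.8 ± 14.1 against 31.5 ± 4.28 CPM. Whether the counting used strand is not given in the sources used here, so reads of this overlapping pair cannot be fully told apart. YPR027C, YNL033W and YNL019C, all uncharacterised, were at 13.1 ± 2.24, 17.7 ± 4.60 and 11.8 ± 2.71 CPM in WT and at most 1.80 CPM in any kar4Δ library. YNL033W and YNL019C are near-identical copies whose reads could be split by the counting. SCW11, a cell wall glucanase, was at 837, 702, 805 and 815 CPM in WT and at 61.2, 62.1, 64.5 and 65.2 CPM in kar4Δ, a 12.5-fold gap (log2 difference -3.64 ± 0.14 SE, edgeR adjusted p = 4.75e-16). HO, the mating-type switching endonuclease, averaged 52.2 ± 4.17 CPM in WT and 8.94 ± 1.67 CPM in kar4Δ (log2 difference -2.54 ± 0.32 SE). Of 10 genes of daughter-cell separation, SCW11 and AMN1 were lower (20.0%), while the chitinase gene CTS1 and PRY3 were higher (20.0%). These shares lay near the 21.1% and 16.8% of all genes called lower and higher.

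**Figure D2:**
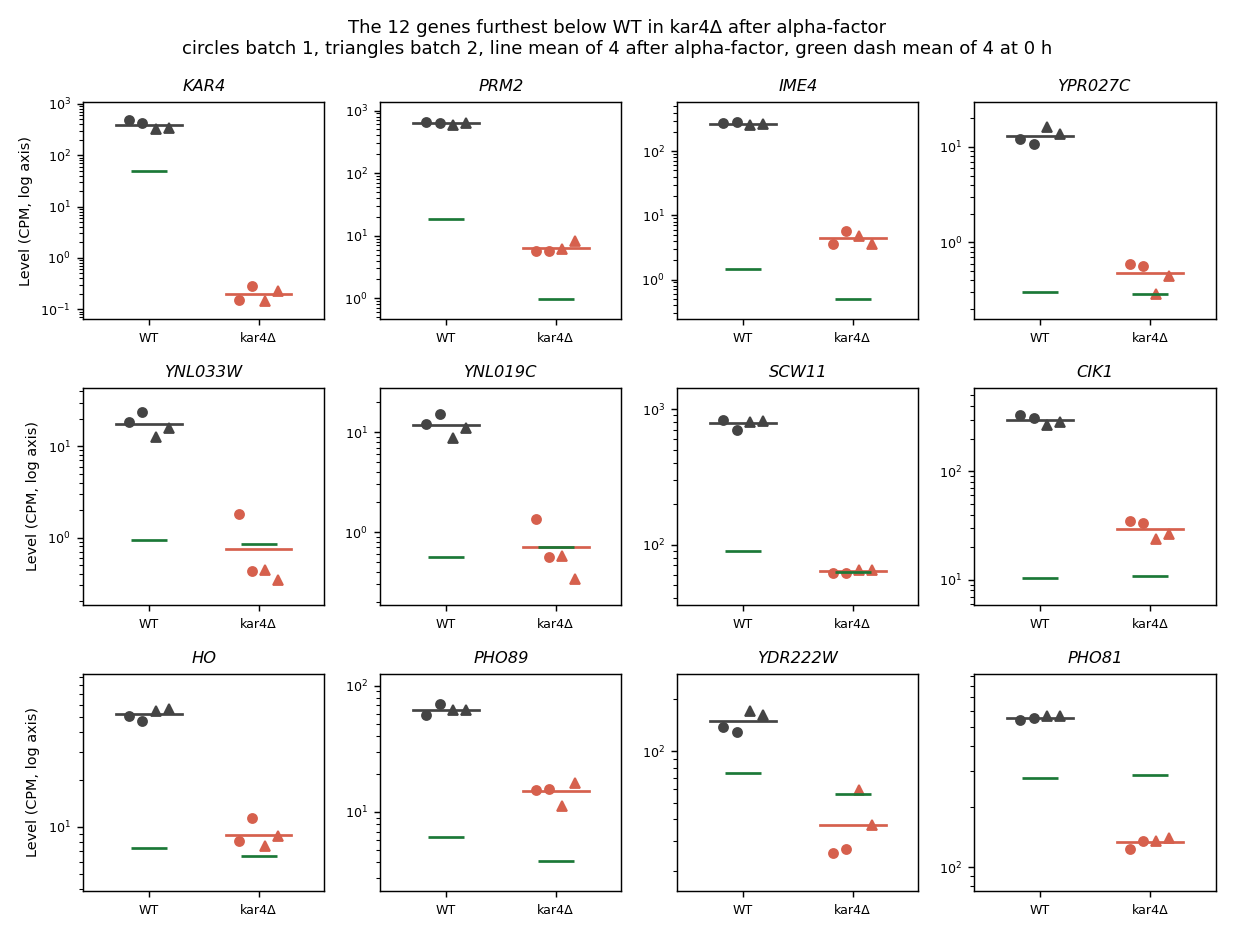
CPM on a log axis in each WT and kar4Δ library after alpha-factor for the 12 genes furthest below WT, KAR4 included, counting called genes whose groups did not overlap and whose mean was 1 log2 CPM or more (circles, batch 1; triangles, batch 2; line, mean of 4; green dash, mean of the same strain at 0 h). PRM2, at 598 to 657 CPM in WT, lies at 5.66 to 8.11 CPM in kar4Δ.

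Other genes named for their response to pheromone divided. Of 7 further PRM genes, which encode pheromone-regulated membrane proteins, 6 were lower and PRM6 was higher (median -1.11, against 21.1% of all genes called lower). PRM8 fell 2.71-fold, from 455 ± 58.1 to 168 ± 13.8 CPM, PRM4 2.17-fold, from 614 ± 83.2 to 283 ± 38.6 CPM, and PRM9 2.57-fold, from 37.1 ± 16.3 to 14.1 ± 5.24 CPM. Of 9 cell fusion genes, 3 were lower and 3 were higher. FIG1, which acts in calcium entry during mating, was 1.603-fold lower, at 347 ± 39.4 against 555 ± 49.1 CPM, and RVS161, which acts in cell fusion, was 1.52-fold lower, at 257 ± 17.1 against 389.6 ± 37.6 CPM. PRM1, for plasma membrane fusion, passed edgeR (log2 difference -0.46 ± 0.16 SE, adjusted p = 0.0289) but not DESeq2 (adjusted p = 0.0612), nor edgeR in batch 1 alone (adjusted p = 0.137). FUS1, needed for cell fusion and widely used as a reporter of Ste12, was not called, at 824 ± 82.9 CPM in WT and 883 ± 125 CPM in kar4Δ. None of the 3 agglutinin genes was called by edgeR or DESeq2, and none had an unadjusted edgeR p under 0.05: AGA1, the anchor subunit, averaged 9332 ± 1165 CPM in WT and 8545 ± 512 CPM in kar4Δ, and AGA2, the adhesion subunit, averaged 628 ± 126 and 611 ± 84.8 CPM.

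Signalling genes showed moderate differences in both directions. Of 15 genes of the receptor, G protein and kinase cascade, 6 were higher and 1, KSS1, was lower, against 16.8% and 21.1% of all genes. FUS3, the MAP kinase that phosphorylates Ste12 and its inhibitors, was at 393, 377, 406 and 429 CPM in WT and at 775, 758, 783 and 749.6 CPM in kar4Δ (log2 difference 0.93 ± 0.07 SE, edgeR adjusted p = 2.52e-10). Every kar4Δ library was above every WT library. The receptor gene STE2 was not called (0.01 on the log2 scale). Of 6 genes that damp the signal, 3 were lower and none higher. MSG5, a phosphatase of Fus3, was 2.11-fold lower, at 162 ± 6.29 against 342 ± 14.2 CPM, and AFR1, which acts in adaptation, was 1.76-fold lower, at 243 ± 18.2 against 428 ± 10.3 CPM. The third, ASG7, lost its call with DESeq2 (adjusted p = 0.26), without the batch term and in several of the fits that leave out a library. SST2, the regulator of the G protein, was not called. Among 7 genes for maturation of a-factor, the pheromone that a cells release, STE14 was 2.56-fold higher, at 225 ± 25.5 against 87.7 ± 8.51 CPM, AXL1 was 1.84-fold higher, and RCE1 was lower.

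The genes normally used by alpha cells were the most clearly raised group. All 5 on the marker list were called higher in kar4Δ, against 16.8% of all genes, with a median difference of 3.85 (log2). MF(ALPHA)2, an alpha-factor precursor gene, is shown as the alpha-specific gene with the largest difference (chrVII:345154-345453, minus strand, R64, capitals as above).
MF(ALPHA)2: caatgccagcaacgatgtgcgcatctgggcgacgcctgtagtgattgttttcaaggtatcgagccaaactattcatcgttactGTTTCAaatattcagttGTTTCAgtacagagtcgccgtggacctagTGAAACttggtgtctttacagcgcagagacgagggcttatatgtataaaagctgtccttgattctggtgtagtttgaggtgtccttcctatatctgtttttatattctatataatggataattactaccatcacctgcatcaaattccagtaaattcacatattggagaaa
Copies of the motif lie 217, 200 and 171 bases ahead of the start. Within 500 bases SAG1 and STE3 have 2 copies each, and MF(ALPHA)1 and AFB1 have 0. Of the 12 most raised genes under the naming rule 7 have the motif and 5 have none, against 30.7% of all promoters scanned with it. Of the 12 most lowered 6 have it and 6 have none, and the 6 with it include the deleted KAR4, with 4 copies. MF(ALPHA)2 was at 10.3, 15.1, 15.98 and 11.8 CPM in WT and at 294, 342, 322 and 274 CPM in kar4Δ (log2 difference 4.49 ± 0.30 SE, edgeR adjusted p = 2.18e-11). SAG1, the alpha-agglutinin, was at 191, 152, 234 and 217 CPM in WT and at 3202, 3196, 3128 and 2928 CPM in kar4Δ (log2 difference 3.98 ± 0.11 SE, edgeR adjusted p = 2.29e-18). In both genes every kar4Δ library was far above every WT library, 22.4-fold and 15.8-fold by the edgeR fit. MF(ALPHA)1, the major alpha-factor gene, averaged 1.23 ± 0.454 CPM in WT and 18.4 ± 2.58 CPM in kar4Δ. STE3, the receptor for a-factor, averaged 1.26 ± 0.188 and 12.9 ± 2.53 CPM, and AFB1, the a-factor barrier protein, averaged 49.6 ± 3.96 and 204 ± 23.8 CPM. The 5 genes together summed to 219 to 298 CPM in WT and to 3409 to 3804 CPM in kar4Δ, against 393 to 443 CPM in WT at 0 h, 545 to 737 CPM in kar4Δ at 0 h and 104 to 131 CPM in pheromone-treated ste12Δ. Without SAG1 the other 4 summed to 62.1 to 68.1 CPM in WT and 480.4 to 608 CPM in kar4Δ. No marker was at 0 counts in any of these groups. Of the genes that flank SAG1, APL1 was called higher by 0.85 (log2) and MRX12 was not called, and neither gene beside MF(ALPHA)2 was called. Whether alpha cells were present was not tested, and in bulk RNA a change in the number of cells of a type cannot be told apart from a change in RNA per cell. The a-cell markers did not move with the alpha-cell markers: of the 6 tested, STE6 was called higher, ASG7 lower, and MFA1, MFA2, AGA2 and STE2 were not called.

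**Figure D3:**
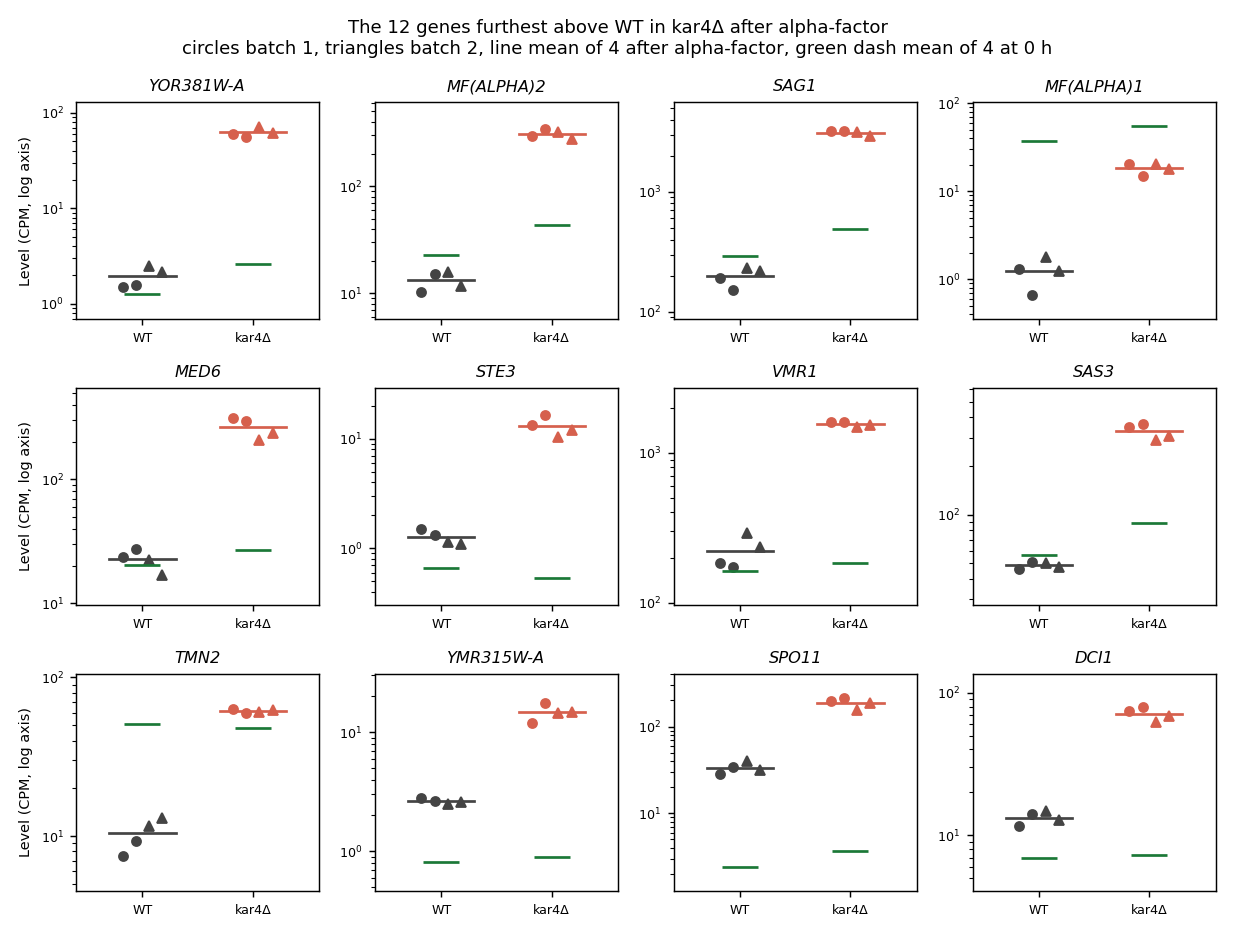
CPM on a log axis in each WT and kar4Δ library after alpha-factor for the 12 genes furthest above WT counting called genes whose groups did not overlap and whose mean was 1 log2 CPM or more (circles, batch 1; triangles, batch 2; line, mean of 4; green dash, mean of the same strain at 0 h). SAG1 lies at 152 to 234 CPM in WT and at 2928 to 3202 CPM in kar4Δ.

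Genes outside the mating lists also rose. MED6, a subunit of Mediator, was at 23.9, 27.6, 22.4 and 16.9 CPM in WT and at 315, 298, 207 and 237 CPM in kar4Δ (log2 difference 3.53 ± 0.09 SE, edgeR adjusted p = 2.13e-19). SPO11, the nuclease that makes meiotic double-strand breaks, was at 28.2, 33.9, 40.6 and 31.2 CPM in WT and at 197, 215, 156 and 185 CPM in kar4Δ (log2 difference 2.47 ± 0.11 SE, edgeR adjusted p = 7.86e-15). The groups were far apart for both genes, 11.5-fold and 5.56-fold. VMR1, a vacuolar ABC transporter, averaged 221 ± 54.4 CPM in WT and 1560.0 ± 51.8 CPM in kar4Δ, and SAS3, a histone acetyltransferase, averaged 48.8 ± 2.32 and 328 ± 35.5 CPM. The uncharacterised gene YOR381W-A had the largest positive difference of the genes named, from 1.94 ± 0.477 to 62.2 ± 6.001 CPM (log2 difference 4.97 ± 0.17 SE). Its neighbours did not rise with it: FRE3 was lower (-0.74) and FIT2 was not called (0.22). TMN2 averaged 10.4 ± 2.45 and 61.4 ± 1.64 CPM, DCI1, an enzyme related to peroxisomal isomerases, averaged 13.3 ± 1.38 and 71.2 ± 7.48 CPM, and YMR315W-A averaged 2.62 ± 0.127 and 14.7 ± 2.27 CPM. Also higher were the flocculin gene FLO11 (106 ± 10.1 and 276 ± 26.9 CPM) and the cell wall gene SVS1 (256 ± 19.0 and 653 ± 133 CPM).

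Some of the raised genes lay side by side. DUO1, a kinetochore gene chosen after its values were seen, averaged 10.9 ± 1.10 CPM in WT and 54.6 ± 5.46 CPM in kar4Δ (log2 difference 2.32 ± 0.10 SE), and its divergent neighbour YBP2 averaged 83.8 ± 10.7 and 426 ± 17.1 CPM (2.35 ± 0.08 SE). The starts of these genes are 353 bases apart. The promoters of SPO11 (chrVIII:64158-64457, minus strand) and DUO1 (chrVII:389712-390011, minus strand) are shown as examples of raised genes with the motif, in R64 with capitals as above.
SPO11: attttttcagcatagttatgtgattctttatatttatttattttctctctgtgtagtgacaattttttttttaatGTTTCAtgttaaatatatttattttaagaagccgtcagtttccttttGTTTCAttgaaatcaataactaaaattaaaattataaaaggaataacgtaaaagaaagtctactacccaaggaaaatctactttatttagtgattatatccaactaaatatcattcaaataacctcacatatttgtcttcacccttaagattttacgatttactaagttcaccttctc
DUO1: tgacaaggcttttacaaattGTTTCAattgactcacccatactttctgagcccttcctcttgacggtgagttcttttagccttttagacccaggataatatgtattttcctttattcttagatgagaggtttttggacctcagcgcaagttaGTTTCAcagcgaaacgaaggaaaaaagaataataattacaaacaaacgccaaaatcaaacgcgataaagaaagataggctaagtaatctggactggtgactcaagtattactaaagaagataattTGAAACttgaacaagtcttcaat
SPO11 has the motif 225 and 178 bases ahead of its start, and DUO1 has it 280, 148 and 23 bases ahead. Among genes with a known position, leaving out transposon genes, 19 of 110 at least 2-fold higher (17.3%) were next to another such gene, whereas 3.79% of all 5674 genes with a position had a neighbour in that set. Of the 10 adjacent pairs, 6 were divergent, 4 lay on the same strand and 0 were convergent, and over all 5657 adjacent pairs 1455 were divergent, 1444 convergent and 2758 on the same strand. MED6 and the cyclophilin gene CPR2, which lies 153 bases downstream of it on the same strand, were such a pair, with CPR2 at 35.8 ± 4.77 and 89.9 ± 21.2 CPM. Among genes at least 2-fold lower, 16 of 98 (16.3%) had a neighbour in the set, against 3.40% of all genes. PRM8 with MST27 and PHO84 with YML122C were among these pairs. Neighbours named here were picked from the sets after their values were seen, and reads that run over from a neighbouring transcript were not separated.

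The motif was more frequent ahead of raised genes than ahead of lowered genes. Within 500 bases and without transposon genes, TGAAAC on either strand was present for 60 of 110 genes at least 2-fold higher (54.5%), for 27 of 96 at least 2-fold lower (28.1%) and for 1674 of all 5643 tested (29.7%). The longer TGAAACA, which is contained in the first count, was present for 31.8%, 12.5% and 11.7% of these groups. At least 2 copies of TGAAAC were present for 24.5%, 8.33% and 5.46%. Over all called genes without transposons the shares for TGAAAC were 47.0% among the higher and 23.5% among the lower. The lowered nuclear fusion genes differed among themselves, since CIK1, PRM2 and PRM3 have the motif and KAR3 does not. The deleted KAR4, which has the motif, is counted among the lowered genes. These are counts of letters in a window and no test was made.

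Among lists beyond mating, those of microtubule, mitotic and DNA replication genes held more raised members than the 16.8% of all genes called higher, with small differences. Of 25 genes for nuclear movement and microtubules, 15 were higher and 0 lower (median 0.28), with 10 called in batch 1 alone and 12 in batch 2 alone. TUB1, alpha-tubulin, averaged 229 ± 13.5 CPM in WT and 399 ± 12.7 CPM in kar4Δ, and the plus-end protein gene BIM1 and the spindle pole gene SPC98 were also called higher. Of 14 mitotic genes 9 were higher and 1 was lower (median 0.46, against 16.8% and 21.1% of all genes). CDC20, the activator of the anaphase-promoting complex, averaged 54.0 ± 7.86 and 118 ± 5.01 CPM. Of 30 DNA replication and cohesion genes 17 were higher and 2 lower (median 0.28). RNR1, the large subunit of ribonucleotide reductase, averaged 105 ± 32.6 CPM in WT and 229 ± 69.3 CPM in kar4Δ, and MCD1, a cohesin subunit, averaged 11.5 ± 2.83 and 19.1 ± 2.02 CPM. None of 10 histone genes was called by edgeR or DESeq2, and none had an unadjusted edgeR p under 0.05. The S-phase cyclin gene CLB5 was not called either, at 8.58 ± 2.00 and 7.21 ± 1.02 CPM. Of 16 polarity genes 7 were higher and 1, GIC2, was lower, against the same shares. In the G1 list of 16 genes, 5 were higher, among them WHI5, SWI6 and CLN2, and 3 were lower, near the 21.1% of all genes, namely HO, CLN3 and PCL2, a cyclin of the kinase Pho85 that fell from 597 ± 28.6 to 208 ± 22.6 CPM. The genotype lists CLN2 and CLN3 as mutated in all strains and adds GAL-CLN3, and where their reads arise was not tested. CLN3 overlapped between the groups, at 58.6 to 134 CPM in WT and 50.5 to 70.8 CPM in kar4Δ.

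Of 132 ribosomal protein genes, 72 were called lower and 1 higher (median -0.31, against 21.1% of all genes called lower). This count rested on batch and library: 114 were lower in batch 1 alone and 15 in batch 2 alone, and leaving out WT replicate 1, kar4Δ replicate 1 or kar4Δ replicate 2 gave 45, 44 and 44. Of 26 ribosome biogenesis genes 23 were lower and 0 higher (median -0.37), with 13 lower in batch 2 alone. NSR1, the yeast nucleolin, averaged 255 ± 21.4 CPM in WT and 150.3 ± 22.5 CPM in kar4Δ. Of 13 osmotic stress genes 9 were lower and 0 higher (median -0.59, against 21.1% and 16.8% of all genes). Among them GPD1, for glycerol synthesis, averaged 554 ± 19.4 and 368 ± 5.24 CPM, and HSP12, a membrane stress protein, averaged 63.4 ± 21.4 and 25.4 ± 11.9 CPM. In the phosphate list of 19 genes, 7 were lower (36.8%) and 2 higher. PHO81, the inhibitor that signals phosphate starvation, was at 539, 555, 567 and 563 CPM in WT and at 123, 135, 135 and 139 CPM in kar4Δ. The groups were 4.18-fold apart (log2 difference -2.06 ± 0.06 SE, edgeR adjusted p = 7.95e-18). The phosphate transporter genes PHO89 and PHO84 fell 4.40-fold and 2.80-fold, while the acid phosphatase gene PHO5 was not called (16.9 ± 5.65 and 17.3 ± 4.07 CPM).

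The transposon families Ty2 and Ty3 moved apart. All 20 Ty2 genes tested were higher, 16 of them at least 2-fold (median 1.14, range 0.96 to 1.27). By contrast, the 4 genes on the Ty3 list were lower, with a median of -1.07. Of 61 Ty1 genes 13 were higher and 0 lower (median 0.35), near the 16.8% of all genes called higher. Of 5 Ty4 genes 2 were lower and 0 higher, against 21.1% and 16.8% of all genes. Copies of a family share reads, so these genes are not separate measurements. The Ty3 gap was already present at 0 h, with a median of -1.02. Of 22 meiosis genes 4 were higher and 4 lower (18.2% each), near the shares over all genes (16.8% and 21.1%), and the sporulation markers IME1, IME2 and NDT80 summed to 39.7 to 62.1 CPM in WT and 30.9 to 49.6 CPM in kar4Δ. Of 6 genes listed for mRNA methylation, MUM2 and VIR1 were higher and IME4 was lower, against 16.8% and 21.1% of all genes. MUM2 averaged 39.5 ± 3.04 CPM in WT and 72.4 ± 2.70 CPM in kar4Δ. Of 26 methionine genes 11 were lower (42.3%) and 3 higher (11.5%). In the list of 15 fatty acid genes 7 were lower (46.7%) and 3 higher (20.0%). Among 31 cell wall genes 12 were lower (38.7%) and 6 higher (19.4%). The lowered shares of these lists lay above the 21.1% of all genes, and each list held called members in both directions. Of 22 iron genes 6 were lower (27.3%) and 3 higher (13.6%), and of 32 respiration genes 8 were lower (25.0%) and 0 higher, so the lowered shares lay near the 21.1% of all genes. Of 15 oxidative stress genes 5 were lower and 1 higher.

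**Figure D4:**
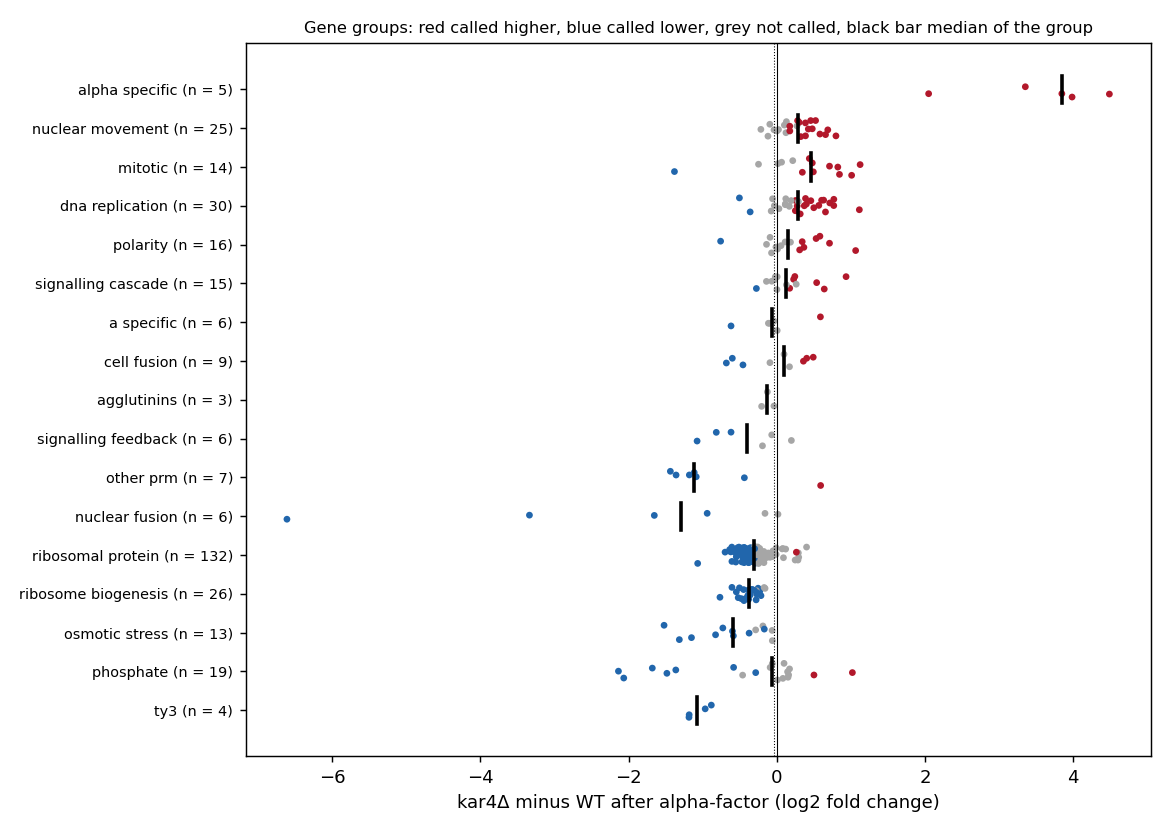
Log2 difference between kar4Δ and WT after alpha-factor for each tested member of the main gene lists (points; horizontal axis, kar4Δ minus WT; red called higher, blue called lower, grey not called), with the list median as a black bar and the median of all genes as a dotted line. The median is 3.85 for alpha-specific genes, -1.30 for nuclear fusion genes and -0.03 for all genes.

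Most of the genes at least 2-fold apart after alpha-factor were not called at 0 h. At 0 h kar4Δ was called above WT for 360 genes (5.84%) and below it for 377 (6.12%). Of the 118 genes at least 2-fold lower after alpha-factor, 17 were also lower and 2 higher at 0 h, and of the 152 at least 2-fold higher, 12 were higher and 2 lower. Their median gaps at 0 h were -0.16 and 0.16, against 0.00 for all genes. The gap after alpha-factor differed from the gap at 0 h for 1167 genes (18.9%) by an interaction contrast in edgeR, 537 in the higher (8.72%) and 630 in the lower direction (10.2%). CIK1 was level at 0 h, at 10.5 CPM in WT and 10.8 CPM in kar4Δ (interaction -3.39 ± 0.12 SE). After treatment the WT mean was 297 CPM and the kar4Δ mean 29.6 CPM. Treated cells had also spent a further 60 min in glucose, so pheromone and time cannot be told apart in these gaps. KAR3 was also close between the strains before treatment, at 32.0 and 27.4 CPM at 0 h (interaction -1.43 ± 0.12 SE). PRM2 was already apart at 0 h, at 18.6 CPM in WT and 0.967 CPM in kar4Δ, and its gap grew by -2.32 ± 0.43 SE. KAR5, FUS1 and AGA1 were higher in kar4Δ at 0 h and level afterwards: KAR5 stood at 19.4 and 36.7 CPM before pheromone, FUS1 at 111 and 209 CPM, and AGA1 at 2202 and 3602 CPM. Untreated kar4Δ thus held more of these 3 pheromone-response transcripts than untreated WT, and FUS1 and AGA1 are named after their values were seen. PHO81 was at 279 and 288 CPM at 0 h, and after treatment the WT mean of 556 CPM lay above and the kar4Δ mean of 133 CPM below both. MF(ALPHA)1 averaged 37.1 CPM in WT at 0 h and 1.23 CPM after treatment, and 55.0 and 18.4 CPM in kar4Δ, so both strains had less of it after pheromone. SAG1 averaged 488 CPM at 0 h and 3113 CPM after treatment in kar4Δ, and 292 and 199 CPM in WT, so here the means moved in opposite directions. The 0 h and treated samples were portions of 1 culture per the treatment protocol, a pairing that was not modelled.

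**Figure D5:**
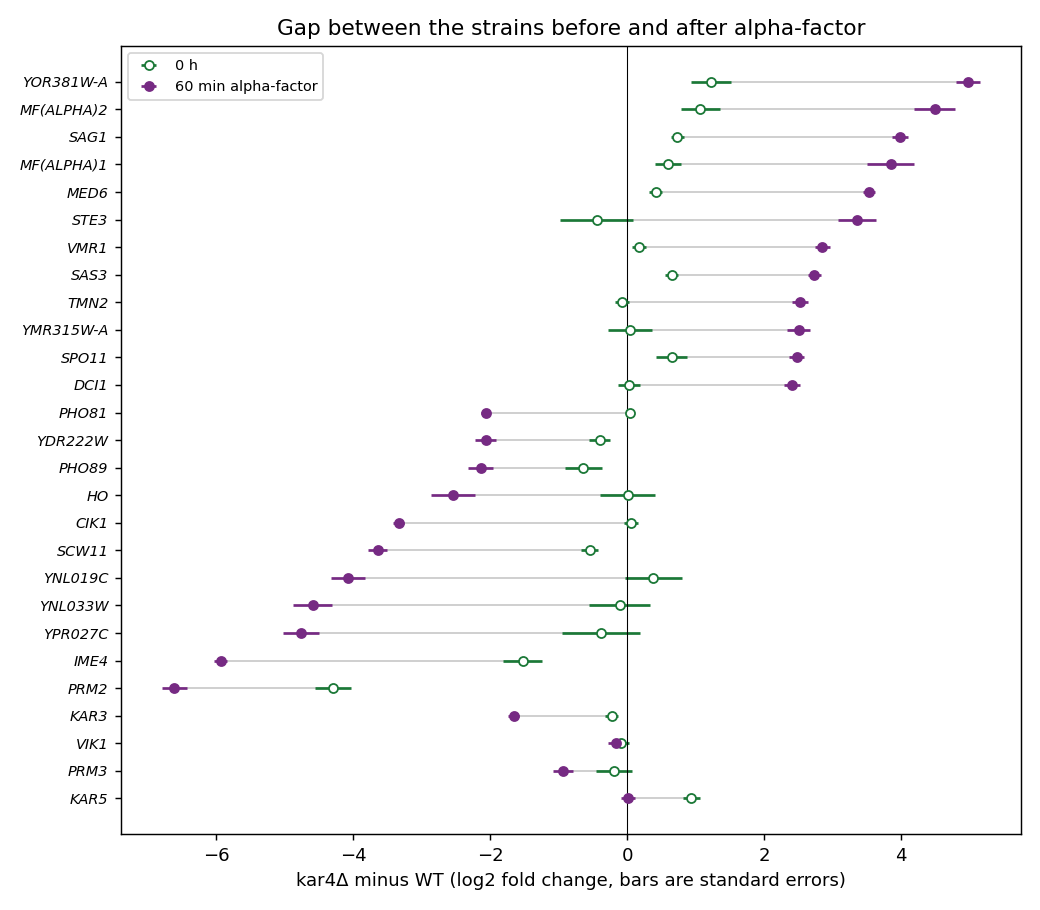
Gap between kar4Δ and WT (horizontal axis, log2, kar4Δ minus WT) at 0 h (open green) and after alpha-factor (filled purple) for the genes furthest from WT and the other nuclear fusion genes, 1 gene a line, with bars for the standard error. CIK1 lies at 0.05 before and -3.34 after, and STE3 at -0.45 before and 3.35 after.

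Set against ste12Δ, the level left without Kar4 differed from gene to gene. KAR4 itself averaged 19.1 CPM in pheromone-treated ste12Δ, against 394 CPM in treated WT, so ste12Δ also had much less KAR4 transcript. After alpha-factor 4084 genes (66.3%) were called between kar4Δ and ste12Δ in the same edgeR fit, 1835 higher (29.8%) and 2249 lower (36.5%) in kar4Δ. With library totals these were 844 and 3839, so the balance depends on the scaling. CIK1 and KAR3 stood at 10.0 and 22.6 CPM in ste12Δ, below the 29.6 and 130.4 CPM in kar4Δ (log2 differences 1.55 and 2.52, both called). PRM3 and KAR5 stood at 0.383 and 5.19 CPM in ste12Δ, far below their kar4Δ means of 134 and 161 CPM. For both genes kar4Δ was thus much closer to WT than ste12Δ was. YPR027C was at 0.451 CPM in ste12Δ and 0.477 CPM in kar4Δ, and was not called between them. SCW11 was at 43.2 CPM in ste12Δ, 0.55 (log2) below the 63.3 CPM in kar4Δ. For PHO81, HO and PHO84 kar4Δ was below ste12Δ: PHO81 was at 133 against 228 CPM, HO at 8.94 against 21.6 CPM, and PHO84 at 121 against 787 CPM. Among raised genes, SPO11 was at 1.76 CPM and SAG1 at 111 CPM in ste12Δ, and their kar4Δ levels were higher by 6.75 and 4.82 (log2). TMN2 differed from these, at 73.0 CPM in ste12Δ and 61.4 CPM in kar4Δ, both above the 10.4 CPM of WT.

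Few of these differences were called after loss of IME4, in a comparison with fewer libraries. The ime4Δ libraries and their WT, 2 of each after merging columns that agreed within sampling noise, share no library with the kar4Δ comparison. Of 6156 genes, 14 (0.227%) were called, 12 higher (0.195%) and 2 lower (0.0325%), the 2 being IME4 (-9.13) and RME2 (-2.67). With 2 libraries against 2, fewer small differences can be called than with 4 against 4, so the counts of the comparisons are not alike. The median difference in ime4Δ was 0.05 (log2) over 116 genes at least 2-fold lower in kar4Δ. Over 138 genes at least 2-fold higher in kar4Δ it was 0.10. CIK1, PRM2 and KAR3 were not called in ime4Δ (-0.25, -0.02 and 0.04 on the log2 scale), and their differences in kar4Δ exceeded those in ime4Δ by -3.09, -6.59 and -1.69 (edgeR adjusted p = 2.82e-18, 2.69e-17 and 6.09e-11). Over all 6253 genes of that fit, 1334 (21.3%) differed between the effects of the deletions, 649 higher (10.4%) and 685 lower (11.0%) in kar4Δ relative to ime4Δ. Of the 12 genes called higher in ime4Δ, 10 (83.3%) were also called higher in kar4Δ, against 16.8% of all genes, and these 10 make up 0.968% of the 1033. They include DIG1, at 132.8 and 128 CPM in that WT and 215 and 224 CPM in ime4Δ (0.75 ± 0.08 SE), and FUS3, at 396 and 361 CPM and at 586 and 581 CPM (0.63 ± 0.09 SE). For DIG1 and FUS3 the effects of the deletions were not called different (edgeR adjusted p = 0.457 and 0.0617). AFB1 was higher in ime4Δ by 1.24 and in kar4Δ by 2.05, RME1 by 0.77 and 0.69, and CUZ1 by 0.73 and 0.84. LDB16 went in opposite directions, 0.46 in ime4Δ and -0.55 in kar4Δ. RME2 also did, although the ime4Δ value touches the deleted locus itself.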

How the data were processed

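RNA was sequenced from G1-arrested cultures as 50 nt reads from stranded, ribosome-depleted total RNA libraries, per the labels' protocols. The deposited table holds expected counts, which the authors left unscaled, for 7127 features in 44 columns, of which 24.5% of values are whole. STAR, featureCounts and the build sacCer3 are named in the submitters' processing notes. How reads shared between features were divided, and whether strand was used, is not given in the sources used here.

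Counts were rounded. Of the feature IDs, 6047 matched the R64 annotation, which gave names and promoters, and 1080 did not. Columns of batch 3 that agreed within sampling noise were merged, leaving 36 libraries. The 24 libraries of batches 1 and 2 (WT, kar4Δ and ste12Δ, untreated and treated) were fitted together in edgeR 4.0.16 (R 4.3.3) with TMM scaling, filterByExpr (minimum count 10, minimum total 15), a term for batch and the quasi-likelihood test. P-values were adjusted by Benjamini-Hochberg over all genes tested and called under 0.05. Interaction contrasts compared gaps between strains before and after alpha-factor, and between deletions. Shares of library totals were compared by exact permutation in SciPy 1.17.1. The procedure was tested on simulated counts.

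Depth was 5.57 to 10.2 M counts per library (M, 1000000), and a floor of 3 counts covers counting error only. The members and gene lists were chosen with earlier results of these data known. Genes named are KAR4, the transcription factors, the nuclear fusion genes, the 12 called genes furthest from 0 in each direction whose groups did not overlap and whose mean was 1 log2 CPM or more, up to 4 called members of each list, and genes next to KAR4 and to the 3 most raised genes. FUS1, AFB1, STE2, SST2, AGA1, CLB5, CLN2, GPD1, PHO5 and other list members outside that rule, and DUO1, YBP2, CPR2 and the other adjacent pairs, were named after their values were seen. A gene that the rule names is not reported here. Alternatives were DESeq2 1.42.0, library totals as scaling, no batch term, a replicate block, each batch alone, fewer groups in the fit, no filter, no Ty3, transfer or ribosomal RNA features, a minimum fold, other promoter windows and leaving out each library.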

Additional observations from a re-analysis of the deposited data

Results flagged for a closer look

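For many of the named genes the gap between kar4Δ and WT after alpha-factor differed from the gap at 0 h by the interaction contrast in edgeR, with an adjusted p under 0.05. The change in the gap (log2) was negative for YNL033W (-4.48), YNL019C (-4.45), IME4 (-4.41), YPR027C (-4.37), CIK1 (-3.39), SCW11 (-3.09), HO (-2.55), PRM2 (-2.32), PHO81 (-2.11), YDR222W (-1.67), PHO89 (-1.5), KAR3 (-1.43) and KAR5 (-0.92). It was positive for STE3 (3.80), YOR381W-A (3.75), MF(ALPHA)2 (3.42), MF(ALPHA)1 (3.25), SAG1 (3.25), MED6 (3.11), VMR1 (2.68), TMN2 (2.61), YMR315W-A (2.46), DCI1 (2.38), SAS3 (2.08), SPO11 (1.82) and DIG1 (0.91). KAR5 stands apart from the rest, because its gap of 0.94 at 0 h was absent after treatment.

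In a few genes 1 of the 4 libraries of a group lay far from the other 3, by Dixon's criterion, which chance meets in about 1 in 20 groups. These were YNL033W in kar4Δ replicate 1 (1.80 CPM), PRI2 in kar4Δ replicate 3 (20.0 CPM), CWP1 in WT replicate 3 (83.9 CPM), PRM10 in WT replicate 2 (223 CPM), RPS14B in WT replicate 1 (114.8 CPM) and GLG1 in WT replicate 1 (24.5 CPM).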

How the results depend on the processing

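Under every alternative run, CIK1, KAR3, PRM2, IME4, SCW11, PHO81 and the 5 alpha-specific genes kept their direction and their call. The count of 2332 genes was 288 (172 higher, 116 lower) when a fold of at least 1.5 was tested, and otherwise lay between 1675 (no batch term) and 2569 (the 8 libraries alone). Leaving out 1 library gave 1951 to 2243. The 1167 genes whose gap changed with treatment numbered 751 in batch 1 alone (284 higher), 742 in batch 2 alone (369 lower) and 751 without the batch term (352 higher, 399 lower). Library totals gave 334 higher for that contrast, 844 higher and 3839 lower against ste12Δ, 382 higher for the difference from ime4Δ, and 97.3% of batch 1 calls with the same sign in batch 2. The count for the difference from ime4Δ ran from 779 to 1408 when 1 library was left out (390 to 676 higher, 389 to 740 lower). It was 779 without replicate 2 of that WT, and 862 and 869 without ime4Δ replicates 1 and 2. TGAAACA was found for 9.38% of all genes called lower, and within 250 bases for 5.05% of those at least 2-fold lower and 15.9% of those at least 2-fold higher. The cause of these shifts was not tested.

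Values that changed sign were uncalled and near 0. MCM1 was 0.0444 in batch 2 alone and -0.0777 to 0.0077 with a library left out. KAR5 was -0.0742 in batch 2 alone, -0.0321 with library totals and -0.0389 to 0.0632 with a library left out, and MRX12 was -0.09, -0.0419 and -0.0106 to 0.0697. The change of gap was 0.005 with DESeq2, 0.13 in batch 2 alone and -0.0978 to 0.0634 with a library left out for TEC1, and 0.033 in batch 2 alone and -0.1306 to 0.0173 for VIK1. YPR027C against ste12Δ was -0.39 in batch 2 alone, -0.34 with library totals and -0.1146 to 0.2728 with a library left out.

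Deviations of same-numbered WT and kar4Δ libraries after alpha-factor correlated at 0.114 and -0.158 within batches. Each batch holds too few libraries for these values to settle whether replicate numbers pair the strains. Pairing between the untreated and treated portions of a culture was not tested. A replicate block in place of batch called 2286 genes (997 higher, 1289 lower), 1127 for the change of gap and 4055 against ste12Δ. Nothing resolves genes at the floor of 3 counts, such as KAR4 in kar4Δ.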

Other observations

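Several smaller gene lists gave counts that are read against the 16.8% of all genes called higher and the 21.1% called lower in kar4Δ after alpha-factor. Of 14 trehalose and glycogen genes 3 were higher and 1 lower, and GPH1, glycogen phosphorylase, was 1.28 higher (log2). Of 8 filamentation genes 4 were higher and 1 lower. Of 9 hexose transporter and sensor genes HXT4 was higher by 0.98, and HXT2 and HXT1 differed by -1.15 and -0.68. Of 7 galactose genes 2 were higher and 0 lower, of 11 zinc genes 4 were lower and 1 higher, and of 12 hypoxic genes 2 were lower and 1 higher. Of 6 vitamin B6 genes SNO1 and SNZ1 were lower (-1.38 and -0.83), but none of the 6 was called in batch 1 alone. None of 3 formate dehydrogenase genes was called by edgeR or DESeq2, and none had an unadjusted p under 0.05.

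Within the fatty acid list of 15 genes, ICL2 stood at -1.59, PDH1 at -1.23 and POT1, the peroxisomal thiolase, at 1.98. In the iron list FET3, the high-affinity ferroxidase, stood at 1.29 and ENB1, a siderophore transporter, at -0.96.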
